A study of Mus musculus with 4 samples.

Results

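The Ifit genes encode interferon-induced proteins with tetratricopeptide repeats, and the family was followed here through its 5 members Ifit1, Ifit2, Ifit3, Ifit3b and Ifit1bl1. They were taken by symbol from the 21959 genes listed for tumour dendritic cells (DCs) and tumour T cells, and every member was listed for both cell types. The groups were DCs of mice given X-Ray+O-IMDQ, DCs of mice given PBS, CD3+ T cells of mice given X-Ray+O-IMDQ and CD3+ T cells of mice given PBS. All mice carried MC38 tumours, a mouse colon carcinoma model, and the cells were taken 72 h after treatment had been given for the second time. The series calls X-Ray+O-IMDQ a radiotherapy-activated prodrug treatment. Strain, age, sex and the number of animals behind a library are not given in the sources used here, nor how the cells were sorted. Each group had 1 labelled library, so every difference is between libraries, has no replicate check and carries no p-value. The PBS columns were matched by the read file number in the descriptions, while the titles give the PBS samples another number, so the PBS side of every ratio rests on that choice.

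Ifit proteins are among the most strongly interferon-induced products of vertebrate cells. Type I interferon binds its receptor, and the kinases Jak1 and Tyk2 then activate the complex ISGF3, which binds interferon-stimulated response elements in promoters. Ifit1 binds viral RNA whose cap lacks ribose methylation and blocks its translation. Ifit2 binds AU-rich RNA, and in human cells IFIT3 forms complexes with IFIT1 and IFIT2 and strengthens RNA binding by IFIT1. Ifit3b is a close copy of Ifit3, and Ifit1bl1 is an Ifit1-like gene of the mouse cluster.

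The family lies in a single cluster on chromosome 19. Its coordinates are those of the deposited tables, with GRCm39 as the build per the submitters' processing notes. Listed there from 34528094 to 34627409, the 5 members span 99.3 kb. Ifit2 (ENSMUSG00000045932) was listed at 34528094 to 34553819 and Ifit3 (ENSMUSG00000074896) at 34560931 to 34566131, both on the plus strand. Ifit1bl1 (ENSMUSG00000079339) was listed at 34570291 to 34579356 on the minus strand. Ifit3b (ENSMUSG00000062488) was listed at 34585370 to 34590801 and Ifit1 (ENSMUSG00000034459) at 34618271 to 34627409, both on the plus strand. The other annotated gene of the family, Ifit1bl2, lies on the minus strand with 127 bases between its end and the start of Ifit1. Among these 6 genes 0 neighbouring spans overlap.

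Promoters of 4 members are shown because they carry the core of an interferon-stimulated response element. RefSeq windows on build GRCm38.p6 ran from 250 bases before to 50 bases after each annotated start and are given on the strand of the gene. They are chr19:34640639-34640938 for Ifit1, chr19:34583279-34583578 for Ifit3, chr19:34607707-34608006 for Ifit3b and, on the minus strand, chr19:34601919-34602218 for Ifit1bl1. Capitals mark matches of the element's core, spelled GAAA, any 2 bases and GAAA. Both strands were searched, and the matches shown all read as the reverse complement, with TTTC at either end.
Ifit1: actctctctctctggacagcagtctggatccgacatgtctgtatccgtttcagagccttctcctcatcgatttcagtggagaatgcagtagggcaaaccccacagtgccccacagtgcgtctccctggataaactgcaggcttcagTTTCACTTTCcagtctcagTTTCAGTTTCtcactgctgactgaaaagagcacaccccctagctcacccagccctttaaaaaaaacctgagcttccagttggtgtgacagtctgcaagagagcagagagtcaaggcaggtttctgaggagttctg
Ifit3: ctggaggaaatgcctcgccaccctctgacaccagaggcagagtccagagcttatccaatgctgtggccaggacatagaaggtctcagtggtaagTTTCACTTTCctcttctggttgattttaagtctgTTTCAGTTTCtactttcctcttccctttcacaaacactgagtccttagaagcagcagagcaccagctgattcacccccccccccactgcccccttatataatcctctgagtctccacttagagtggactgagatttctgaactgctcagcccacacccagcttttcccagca
Ifit3b: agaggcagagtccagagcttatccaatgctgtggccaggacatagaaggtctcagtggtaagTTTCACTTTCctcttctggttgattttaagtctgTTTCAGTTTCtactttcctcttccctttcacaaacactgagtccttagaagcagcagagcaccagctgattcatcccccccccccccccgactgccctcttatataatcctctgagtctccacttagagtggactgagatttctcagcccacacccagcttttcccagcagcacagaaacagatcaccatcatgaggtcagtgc
Ifit1bl1: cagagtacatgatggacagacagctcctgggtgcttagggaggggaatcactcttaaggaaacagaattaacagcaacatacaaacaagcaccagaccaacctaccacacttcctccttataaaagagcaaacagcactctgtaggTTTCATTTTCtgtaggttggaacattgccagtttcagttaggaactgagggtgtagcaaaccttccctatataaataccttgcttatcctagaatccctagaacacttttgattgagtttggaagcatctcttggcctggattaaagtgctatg

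All of these matches lie upstream of the start. In the Ifit1 window TTTCACTTTC began 104 bases and TTTCAGTTTC 85 bases before the start, and the same pair of 10-base words stood 156 and 122 bases before the start of Ifit3. In Ifit3b they began 188 and 154 bases before the start. The Ifit3 and Ifit3b windows aligned with 94.5% identity over 274 columns, so the matches of these copies are not independent of each other. Ifit1bl1 had the single match TTTCATTTTC, 104 bases before its start, and again 23 bases before a further annotated start. In the 2 windows of Ifit2, 0 matches were found, which says only that these letters are not in these windows. The windows of Ifit1 and of Ifit1bl2, which is transcribed the other way, share 245 bases, so both of their matches are the same genomic bases. Of all 32851 promoter windows 3.44% held at least 1 match and 0.225% held 2 or more. A match is a description of the sequence and not a measured binding site.

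**Figure D1:**
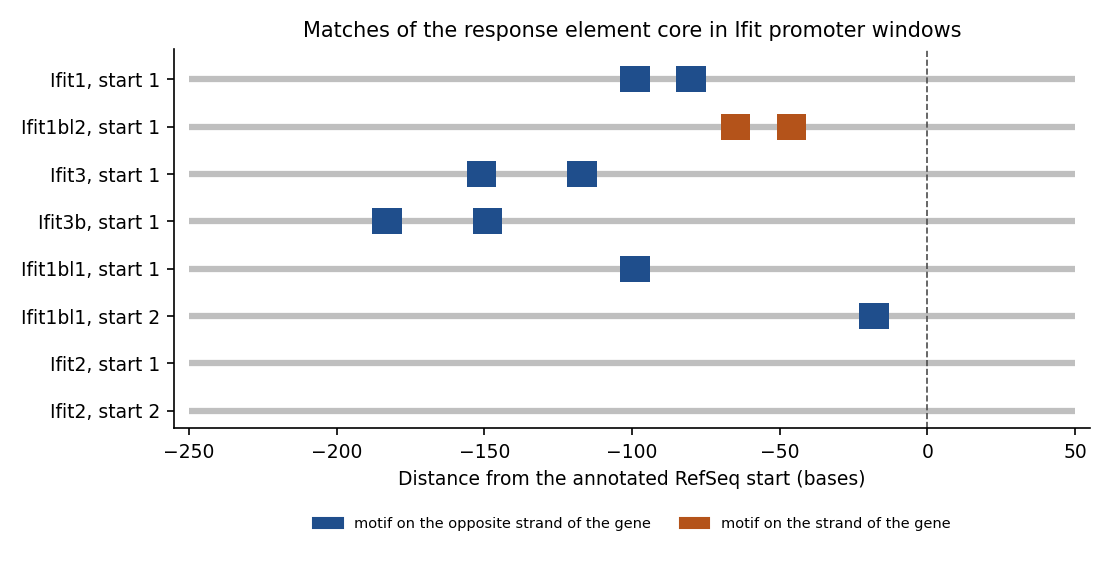
Positions of matches of the response element core in RefSeq promoter windows of the Ifit genes. The horizontal axis is the distance in bases from each annotated start (dashed line), grey lines are the windows from 250 bases before to 50 after, and coloured boxes are matches by strand. Ifit1, Ifit1bl2, Ifit3 and Ifit3b each show 2 matches, each Ifit1bl1 window shows 1, and both Ifit2 windows show 0.

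The libraries held 14056428 counts for treated DCs, 23797357 for PBS DCs, 18463944 for treated T cells and 18649824 for PBS T cells. Where a gene is at 0, the limit of 3 counts stands at 0.213, 0.126, 0.162 and 0.161 CPM in that order (CPM, counts scaled to the total count of a library). The T cell libraries carried the defining genes Cd3e, Cd3d, Cd3g and Cd8a, while Cd4 had 13.6 CPM with treatment and 0.912 CPM with PBS. Cd3e and Cd4 were at 0 in both DC libraries. The 5 listed T cell markers summed to 57.8 CPM in treated DCs and 42.5 CPM in PBS DCs, mainly Cd3d and, with PBS, also Cd3g, and to 8498 CPM in treated T cells and 9523 CPM in PBS T cells. The 9 DC markers summed to 8128 CPM in treated DCs against 60486 CPM in PBS DCs, with Siglech at 0 in the treated library. That sum is mostly H2-Ab1, at 5892 against 49192 CPM, and Cd74. Cd209a was also lower, at 23.4 CPM in treated DCs against 397 CPM in PBS DCs. Itgax had 252 CPM in treated DCs against 167 CPM in PBS DCs, Clec9a 67.7 against 6.47 CPM and Xcr1 10.8 against 8.95 CPM. The DC libraries carried Itgax, H2-Ab1 and Cd74, but the DC lineage genes Flt3 and Zbtb46 were at 4.91 and 4.06 CPM in treated DCs and at 0.672 and 0.378 CPM in PBS DCs. Both were at 0 in treated T cells and at 1.29 and 6.43 CPM in PBS T cells. The DC markers summed to 310 CPM in treated T cells and 417 CPM in PBS T cells. Siglech, at 24.5 and 35.0 CPM there, was higher than in either DC library. All 7 macrophage markers were detected in both DC libraries and summed to 1372 CPM in treated DCs and 5797 CPM in PBS DCs, mostly the C1q genes and Apoe, while Adgre1 had 66.1 and 57.0 CPM in the same order. In T cells they summed to 155 CPM with treatment and 182 CPM with PBS, with Adgre1 at 0 in the treated library. Monocyte markers summed to 653 CPM in treated DCs and 591 CPM in PBS DCs, and to 2720 CPM in treated T cells and 1913 CPM in PBS T cells, there mostly Ly6c2, which CD8 T cells also express. Neutrophil markers summed to 74.2 CPM in treated DCs and 22.1 CPM in PBS DCs, with S100a9 and Retnlg at 0 in both. The detected markers went opposite ways: S100a8 had 71.8 CPM in treated DCs against 3.78 CPM in PBS DCs, and Csf3r 2.42 against 18.3 CPM. NK markers summed to 45.4 CPM in treated DCs and 5.76 CPM in PBS DCs, nearly all Klre1, and to 360 CPM in treated T cells and 445 CPM in PBS T cells. The 3 B cell markers were at 0 in both DC libraries. Ribosomal protein genes took 10.3% of counts in treated DCs against 3.96% in PBS DCs, and 6.22% in treated T cells against 9.10% in PBS T cells. Mitochondrial genes took 1.203% in treated DCs against 0.391% in PBS DCs, and 9763 genes were detected in treated DCs against 10791 in PBS DCs. Among genes that reached 100 counts with PBS, 11.99% were at 0 in treated DCs and 3.97% in treated T cells, and in the reverse direction 3.29% were at 0 in PBS DCs and 1.27% in PBS T cells. The part of cell make-up, RNA content and missing transcripts in the Ifit values was not tested, and in such bulk samples fewer cells of a type and less RNA per cell cannot be told apart.

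In treated DCs the Ifit family was higher than in PBS DCs, and the same held in T cells. The 5 members together took 219.8 CPM in treated DCs against 39.96 CPM in PBS DCs, and 403 CPM in treated T cells against 69.8 CPM in PBS T cells. Ratios are of TMM-scaled counts (scaled within a cell type by edgeR's trimmed mean of M-values), with exact conditional binomial 95% intervals that cover counting error only. The summed ratio was 5.73-fold in DCs, with a log2 interval from 2.41 to 2.63, and 5.67-fold in T cells, with an interval from 2.42 to 2.59. With TMM scaling these intervals overlap over most of their length. Centring on the median of all tested genes, at -0.36 in DCs and -0.072 in T cells, would raise the DC ratio more. The likeness of the summed ratios thus depends on the scaling. Genes with 20 counts or more in either library were tested, and a call of higher or lower needed a 2-fold ratio with an interval clear of 0 on the log2 scale. Of 4 members with enough counts in DCs, 4 were called higher, where 30.2% of 10316 tested genes were called higher and 41.8% lower. Of 5 members in T cells, 5 were called higher, where 18.3% of 11058 tested genes were called higher and 25.4% lower. The members' median log2 ratio was 3.24 in DCs, where all tested genes had a median of -0.36, and 2.48 in T cells, where all had -0.072. Ifit3b entered the DC test through its treated library alone, with its PBS count of 0 set to 3, and without it the DC median over 3 members is 2.62.

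**Figure D2:**
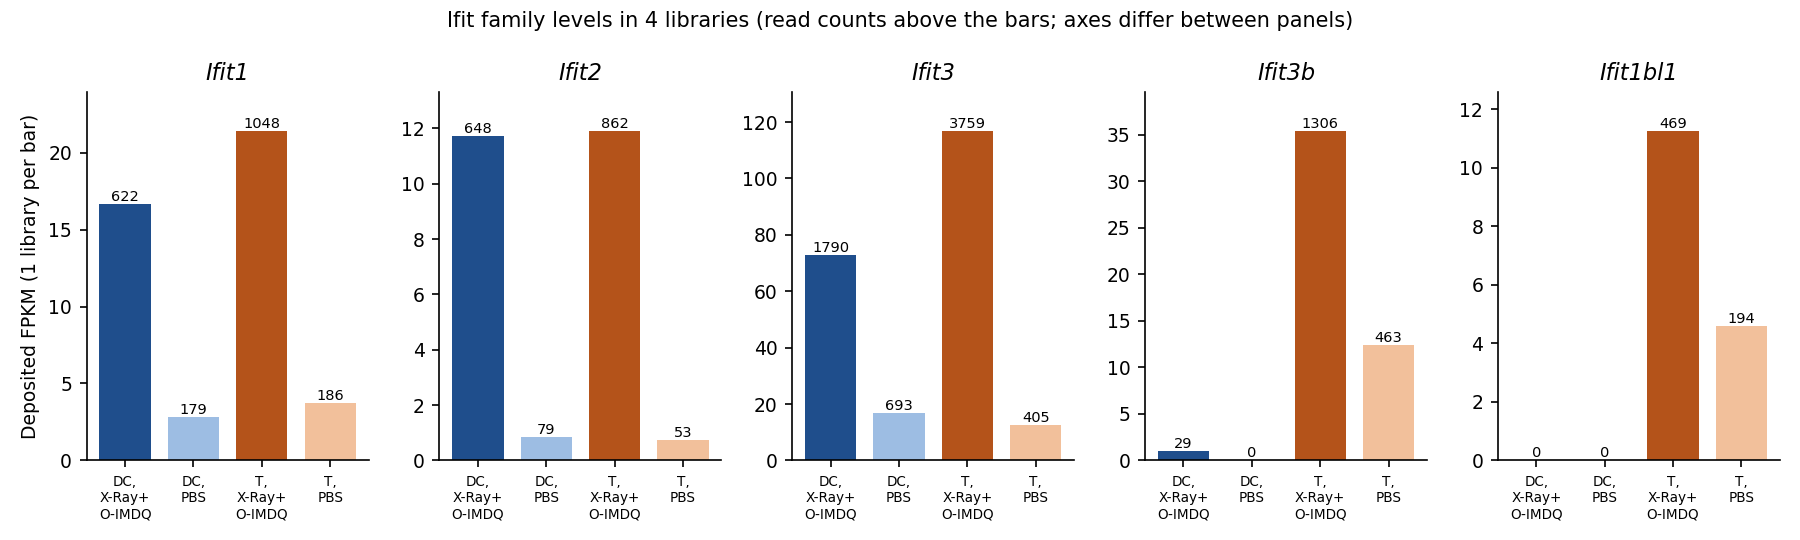
Levels of the 5 Ifit genes in the 4 libraries, as deposited FPKM on a linear axis that starts at 0 and differs between panels. Each bar is 1 library with its read count above it, and treated libraries stand left of PBS libraries within DCs (blue) and T cells (orange). Ifit1, Ifit2 and Ifit3 are present in all 4 libraries, Ifit3b reaches 29 counts at most in DCs, and Ifit1bl1 has 0 counts in both DC libraries.

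Ifit1, the sensor of incompletely capped RNA, had 16.7 FPKM (fragments per kilobase of gene length, scaled to library total) in treated DCs against 2.83 FPKM in PBS DCs. In T cells it had 21.4 FPKM with treatment against 3.76 FPKM with PBS. The treated library was the higher in each cell type. Its ratio was 6.13-fold in DCs, from 622 against 179 counts, with a log2 value of 2.62 and an interval from 2.37 to 2.86. In T cells it was 5.58-fold, from 1048 against 186 counts, with a log2 value of 2.48 and an interval from 2.26 to 2.71. The intervals of the 2 cell types overlap, so no difference between their Ifit1 ratios was detectable at this depth.

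Ifit2, the AU-rich RNA binder, had the lowest PBS level of the members counted in the PBS library of each cell type, and the largest ratio that is not a bound. It had 11.7 FPKM in treated DCs against 0.845 FPKM in PBS DCs, and 11.9 FPKM in treated T cells against 0.724 FPKM in PBS T cells. The ratio was 14.5-fold in DCs, from 648 against 79 counts, and 16.1-fold in T cells, from 862 against 53 counts. On the log2 scale these are 3.86, with an interval from 3.52 to 4.21, and 4.01, with an interval from 3.61 to 4.44. The intervals again overlap. Of all tested genes 91.3% had a lower ratio than Ifit2 in DCs and 96.4% in T cells.

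Ifit3, which in human cells partners IFIT1 and IFIT2, had the highest level per gene length of the family, although in PBS T cells it was nearly level with Ifit3b. It had 73.0 FPKM in treated DCs against 16.7 FPKM in PBS DCs, and 116.7 FPKM in treated T cells against 12.4 FPKM in PBS T cells. The DC log2 ratio was 2.19, with an interval from 2.06 to 2.32, from 1790 against 693 counts. In T cells the ratio was 9.20-fold, with a log2 value of 3.20 and an interval from 3.05 to 3.35, from 3759 against 405 counts. The intervals do not overlap, so these libraries differ in the Ifit3 ratio by more than counting error, while the spread between animals is not known.

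Ifit3b, the copy of Ifit3, had a very different distribution between the cell types. In T cells it had 35.4 FPKM with treatment against 12.4 FPKM with PBS, from 1306 against 463 counts, a ratio of 2.80-fold with a log2 interval from 1.33 to 1.64. In DCs it had 29 counts, or 1.03 FPKM, in the treated library and 0 counts in the PBS library. Against a floor of 3 counts in the PBS library it was 17.1-fold higher, and the interval runs from 13.0-fold upward. Ifit3 and Ifit3b transcripts of GENCODE M21 aligned with 97.8% identity over 1700 columns, and 31.7% of the 100-base windows of Ifit3 occur unchanged in Ifit3b. The sources used here do not say how the authors assigned such shared reads, so the split between the copies is uncertain.

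Ifit1bl1, an Ifit1-like gene, had counts in the T cell libraries and none in the DC libraries. It had 11.2 FPKM in treated T cells against 4.60 FPKM in PBS T cells, from 469 against 194 counts. The ratio was 2.40-fold, with a log2 value of 1.26 and an interval from 1.02 to 1.51, the smallest of the family. In DCs it had 0 counts in the treated library and 0 in the PBS library, so no ratio was given. Of the 7370 genes with at least 100 counts in both T cell libraries, 188 genes, or 2.55%, were likewise at 0 in both DC libraries. Of the 100-base windows of the Ifit1bl1 transcript 0.524% occur in another gene, Ifit1bl2.

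**Figure D3:**
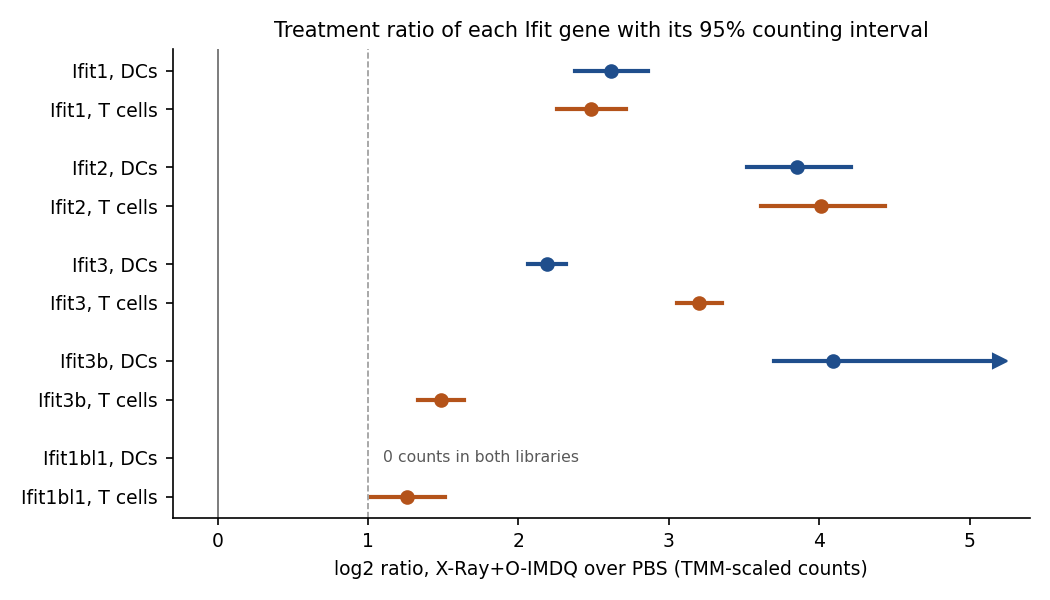
Log2 ratio of X-Ray+O-IMDQ over PBS for each Ifit gene in DCs (blue) and T cells (orange), with 95% counting intervals as lines; the dashed line marks 2-fold. All plotted ratios lie right of the dashed line, the Ifit3 intervals of the 2 cell types do not overlap, and the Ifit3b ratio in DCs is a lower bound drawn with an arrow.

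The copies Ifit3 and Ifit3b were also read together, since their sum does not depend on how shared reads were split between them, unless such reads were left out. Summed, they had 1819 counts in treated DCs against 693 in PBS DCs, and 5065 in treated T cells against 868 in PBS T cells. The summed ratio was 4.63-fold in DCs, with a log2 value of 2.21 and an interval from 2.08 to 2.34. In T cells it was 5.78-fold, with a log2 value of 2.53 and an interval from 2.43 to 2.64. The T cell ratio of Ifit3 thus moved by more than 1.5 times when the copies were summed. With TMM scaling the intervals of the 2 cell types still do not overlap. Other scalings were not applied to the sum, but a scaling shifts every log2 ratio of a cell type by the same amount. Centring on the median of all tested genes moved Ifit3 from 2.19 to 2.54 in DCs and from 3.20 to 3.27 in T cells. The gap between the summed ratios would narrow by as much. A difference between the cell types that holds across scalings is thus not shown. The share of Ifit3b within the summed counts was 1.59% in treated DCs (Clopper-Pearson 95% interval 1.07 to 2.28) and 0 of 693 counts in PBS DCs, with a Clopper-Pearson upper limit of 0.531%; the limit of 3 counts is 0.433%. It was 25.8% in treated T cells (24.6 to 27.0) and 53.3% in PBS T cells (49.96 to 56.7). In PBS T cells the copies thus had nearly equal counts, and the intervals of the T cell libraries lie apart.

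The make-up of the family differed between libraries as well as its level. By FPKM, Ifit3 made 71.3% of the family in treated DCs against 81.9% in PBS DCs, and 59.4% in treated T cells against 36.7% in PBS T cells. Its share was thus lower with treatment in DCs and higher with treatment in T cells. The T cell difference rests on the uncertain split of the copies: Ifit3 and Ifit3b summed made 77.4% of the family in treated T cells against 73.2% in PBS T cells. In DCs the summed copies made 72.3% with treatment against 81.9% with PBS. Ifit2 made 11.5% in treated DCs against 4.15% in PBS DCs, and 6.05% in treated T cells against 2.13% in PBS T cells. The share of Ifit1 was 16.3% in treated DCs against 13.9% in PBS DCs, and 10.9% in treated T cells against 11.1% in PBS T cells. Ifit1bl1 made 5.72% of the family in treated T cells against 13.6% in PBS T cells. In treated DCs the order of levels was Ifit3, Ifit1, Ifit2 and Ifit3b, and in PBS DCs Ifit3, Ifit1 and Ifit2. Treated T cells ran from Ifit3 through Ifit3b, Ifit1 and Ifit2 to Ifit1bl1, where the last neighbours had 11.9 and 11.2 FPKM. In PBS T cells Ifit3 and Ifit3b were close at 12.44 and 12.41 FPKM, followed by Ifit1bl1, Ifit1 and Ifit2.

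**Figure D4:**
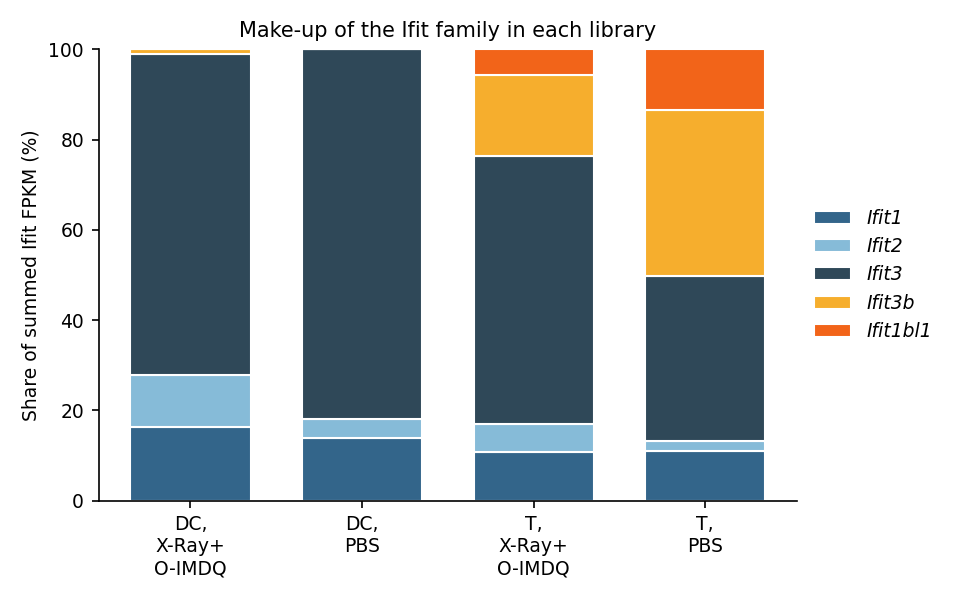
Share of each Ifit gene in the summed FPKM of the family, in percent, for 1 library per bar, with treated libraries left of PBS libraries. Ifit3 fills 71.3% and 81.9% of the DC bars, while Ifit3b and Ifit1bl1 are visible mainly in the T cell bars.

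Between the cell types, Ifit1, Ifit2 and Ifit3 lay within 2-fold of each other and Ifit3b and Ifit1bl1 far apart. These levels come from tables made separately, so they are set side by side as deposited FPKM and no gene is called. Among treated libraries, Ifit1 was 1.28-fold lower in DCs than in T cells and Ifit3 1.60-fold lower, while the Ifit2 log2 ratio of DCs over T cells was -0.018, with an interval from -0.17 to 0.13. Among PBS libraries, Ifit1 was 1.33-fold lower in DCs, Ifit3 was 1.34-fold higher in DCs, and the Ifit2 log2 ratio was 0.22, with an interval from -0.30 to 0.75. The sign for Ifit1 in both conditions and for Ifit2 with treatment depends on the scaling. With TMM over all 4 libraries the log2 ratios of DCs over T cells with treatment were 0.24 for Ifit1, 0.58 for Ifit2 and -0.078 for Ifit3. With PBS they were 0.12 for Ifit1, with an interval from -0.18 to 0.42, 0.75 for Ifit2, with an interval from 0.23 to 1.28, and 0.95 for Ifit3. Ifit3 thus kept its sign in both conditions, but its treated interval under this scaling, from -0.16 to 0.0037, includes 0. Ifit3b was 34.3-fold lower in DCs than in T cells with treatment, with a counting interval from 23.8 to 51.4. Against the floor of 3 counts per library it was 197-fold lower in PBS DCs than in PBS T cells, with an interval from 159.5-fold upward. On the same floor Ifit1bl1 was 119-fold lower in treated DCs than in treated T cells, with an interval from 96.4-fold upward. In PBS DCs it was 82.5-fold lower than in PBS T cells, with an interval from 66.5-fold upward. The low DC levels of Ifit3b and Ifit1bl1 were thus found under both conditions, for Ifit3b on the uncertain split between the copies.

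Calls were also compared across the genes tested in both cell types. Of 9388 such genes, 508, or 5.41%, were called higher in DCs and in T cells. Taken singly, 30.2% of the genes tested in DCs and 18.3% of those tested in T cells were called higher. Ifit1, Ifit2, Ifit3 and Ifit3b were among the 508, but Ifit3b passed the DC count filter through its treated library alone. Another 694 genes were higher in DCs and lower in T cells, and 633 were lower in DCs and higher in T cells.

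**Figure D5:**
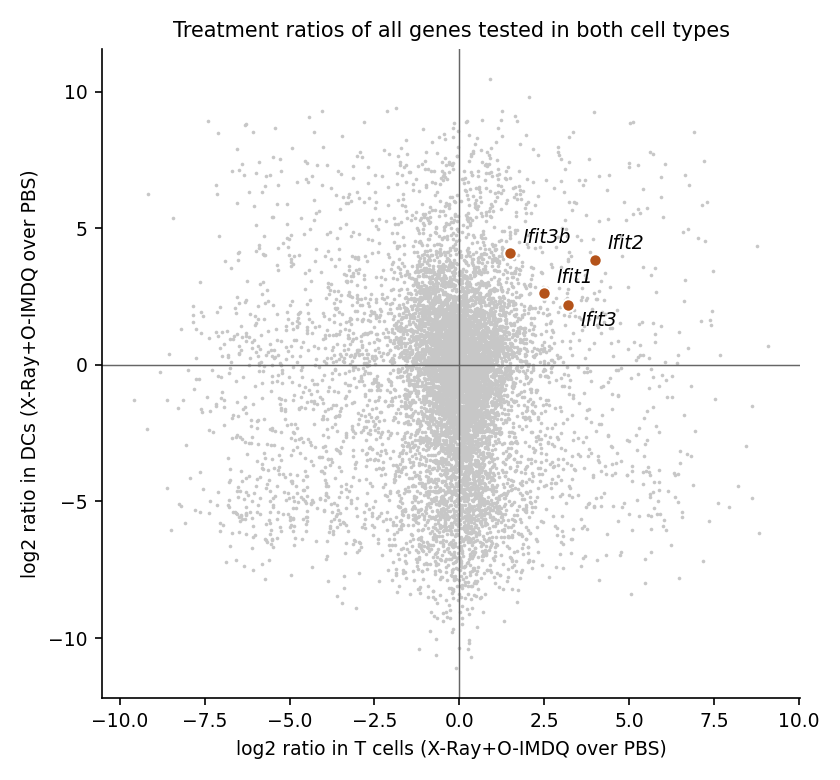
Log2 ratio of X-Ray+O-IMDQ over PBS in DCs (vertical) against T cells (horizontal) for 9388 genes tested in both cell types (grey points). The 4 Ifit genes tested in both (orange) lie at the upper right, with T cell log2 ratios from 1.48 to 4.01. Without Ifit3b, their DC log2 ratios run from 2.19 for Ifit3 to 3.86 for Ifit2. The Ifit3b point in DCs, at 4.09, rests on a PBS count of 0 set to 3, and its interval runs from 3.70 upward.

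The remaining gene of the cluster went the other way. Ifit1bl2, whose promoter window overlaps that of Ifit1, had 0 counts in treated T cells against 49 in PBS T cells. On the floor of 3 counts it was 16.5-fold lower, with an interval from 12.9-fold upward. In DCs it had 0 counts with treatment and 17 with PBS, below the count filter. Neighbours of the cluster, taken as genes within 250 kb, were mixed. Fas, a death receptor, had log2 ratios of 1.59 in DCs and 0.12 in T cells, and Lipa, lysosomal acid lipase, had 0.43 and -0.15. Ch25h, which makes 25-hydroxycholesterol and is itself known as interferon-induced, had 0 counts in treated DCs against 228 in PBS DCs, and 0 in both T cell libraries. Pank1, a kinase of coenzyme A synthesis, had 0 counts in treated DCs against 150 in PBS DCs, but 350 in treated T cells against 35 in PBS T cells. Of all genes with at least 100 counts in PBS DCs, 11.99% were likewise at 0 in treated DCs. Slc16a12, a membrane transporter, had 0 counts in all libraries. The higher Ifit counts in treated libraries were thus not shared by every gene around them.

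The pathway upstream of the Ifit genes was read through the components of interferon receptor signalling. The counts of this and the following gene lists stand beside the shares of all tested genes, of which 30.2% were higher and 41.8% lower in DCs, and 18.3% higher and 25.4% lower in T cells. In DCs 4 of 11 such genes were called higher, 2 lower and 5 neither, with a median log2 ratio of 0.63. In T cells 3 were higher, 0 lower and 8 neither, with a median of 0.52. The ISGF3 subunit Stat2 rose in DCs with a log2 ratio of 1.71 and had 0.37 in T cells, where it was not called. Irf9, the DNA-binding subunit, had a log2 ratio of -0.82 in DCs, where it was not called, and of 1.55 in T cells, where it was called higher. Irf7, which amplifies interferon production, was called higher in both, with log2 ratios of 2.17 and 2.09. The receptor chains Ifnar1 and Ifnar2 fell in DCs, with log2 ratios of -1.12 and -1.96, and had 0.66 and 0.52 in T cells. Tyk2 rose in DCs with a log2 ratio of 3.27, and Usp18, a brake on the receptor, rose in T cells with 4.48. Transcripts of the ligands were nearly undetected: of 18 type I interferon genes 16 had 0 counts in both DC libraries and 17 had 0 in both T cell libraries. Their summed counts were 1 in treated DCs against 45 in PBS DCs, all of the PBS counts in Ifnk, and 6 in treated T cells against 0 in PBS T cells.

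Sensors that feed this pathway from RNA were mixed. Of 11 genes of RNA sensing 6 were higher, 2 lower and 3 neither in DCs, and 7 higher, 2 lower and 2 neither in T cells, with medians of 1.43 and 1.05. The RNA helicases Ddx58, also called RIG-I, and Dhx58 rose in both, with log2 ratios of 1.91 and 2.32 in DCs and 1.46 and 2.51 in T cells. Ifih1, of the same list, had 0.27 in DCs, where it was not called, and rose with 1.23 in T cells. Mavs, the adaptor of Ddx58, had -0.10 in DCs and rose with 3.16 in T cells. Other RNA-directed antiviral effectors had 9 higher, 3 lower and 3 neither of 15 in DCs, with a median of 1.47, and 11 higher, 0 lower and 4 neither in T cells, with a median of 1.63. Eif2ak2, the kinase PKR, rose with 2.37 in DCs and 3.59 in T cells, and Oas3, which makes 2-5A, rose with 4.82 and 1.63. Oasl2 had 551 counts in treated T cells against 1 in PBS T cells, giving 9.09 on the log2 scale (interval 6.61 to 14.4) and resting on a single PBS count. Isg15, a ubiquitin-like modifier, had -0.89 in DCs and rose with 2.08 in T cells.

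The RNA cap that Ifit1 reads is made by a small set of enzymes, and these did not move together. Of 6 cap genes 1 was higher, 2 lower and 3 neither in DCs, and 0 higher, 1 lower and 5 neither in T cells, with medians of 0.48 and 0.34. Cmtr1, which adds the ribose methyl group whose absence Ifit1 detects, rose in DCs with a log2 ratio of 1.83, from 237 against 118 counts. In T cells it had 36 against 23 counts, giving 0.63 on the log2 scale (interval -0.16 to 1.46). Cmtr2, which methylates the next nucleotide, had 0 counts in treated DCs against 253 in PBS DCs, and 13 in treated T cells against 291 in PBS T cells. Rngtt, the capping enzyme, had 1 count in treated DCs against 1252 in PBS DCs, and 1449 against 1364 counts in T cells. Of the genes with at least 100 counts in PBS DCs, 11.99% were at 0 in treated DCs, so such losses are not particular to cap genes. Their cause was not tested. The eIF3 subunits, which Ifit proteins bind to block translation, had 2 higher, 5 lower and 6 neither of 13 in DCs. In T cells all 13 were neither higher nor lower, with log2 ratios from -0.65 for Eif3b to 0.82 for Eif3l. Eif3c and Eif3e, the subunits bound by mouse and human Ifit proteins, had log2 ratios of 0.026 and 0.37 in DCs and of 0.23 and -0.28 in T cells.

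Genes with profiles most like the family were found by the distance between log2(CPM + 1) values, centred on their mean, over the 4 libraries, among 10546 genes with at least 100 counts in 1 library. The nearest to Ifit1 was Ddx60, an antiviral helicase, at a distance of 0.166. Ddx60 had 31.4 CPM in treated DCs against 4.54 CPM in PBS DCs, and 34.2 CPM in treated T cells against 6.06 CPM in PBS T cells. It was followed by Zfp617, Zfp598, a ligase that marks collided ribosomes, Irf7, Traf3, an adaptor of antiviral signalling, Trip6, Actr6, an actin-related protein of chromatin remodelling, and Rhot2, a mitochondrial GTPase, at distances up to 0.393. The nearest to Ifit3 were Actr6, Zfp617, Inpp5f, a phosphoinositide phosphatase, and Rtp4, an interferon-induced chaperone, at distances from 0.374 to 0.432, and then Zc3h8, Simc1, Zfp984 and Kctd20 up to 0.509. Ifit1 and Ifit3 lay 0.634 apart and Ifit2 lay 1.22 from Ifit1 and 1.03 from Ifit3. Ifit3b and Ifit1bl1 lay 1.26 from each other and at least 4.21 from any of these. By these counts the family held a trio found in both cell types and a pair found mainly in T cells. The place of Ifit3b in that pair rests on the uncertain split between the copies. With 4 libraries such distances only describe likeness of the pattern over the libraries, since centring takes out the mean level of each gene.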

How the data were processed

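RNA was measured in 4 libraries, 1 per group, with extraction, mRNA library construction and sequencing by BGI per the labels. The deposited tables hold raw read counts per gene and FPKM made by the authors; each FPKM equals the count divided by gene length and library total, within a relative difference of 2.04e-07. Build GRCm39, R 3.3.1, DESeq2 1.24.0, RSEM 1.2.12 and HISAT2 2.0.4 are named, with no roles, per the submitters' processing notes. Strand handling and assignment of shared reads are not given in the sources used here. Libraries were matched by the read file numbers in the descriptions, although titles number the PBS samples and the treated DC sample differently. The 4 columns of 2 further libraries, whose names match no description but carry the number in the PBS titles, were not used.

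Counts were scaled by TMM within each cell type (edgeR 4.0.16, R 4.3.3) on the whole table. Genes with a symbol and at least 20 counts in either library entered. Ratios have exact conditional binomial 95% intervals (scipy 1.17.1), and shares have Clopper-Pearson intervals; a library at 0 was set to 3 counts. Reads amplified by PCR and lacking molecular identifiers do not count molecules, so intervals cover counting error only. The calls were tested on simulated counts that held counting error only and were scaled by total counts. That test therefore does not bear on TMM scaling or on the spread between animals. Promoters came from RefSeq GRCm38.p6 (all 5 members matched) and transcripts from GENCODE M21, with Biopython 1.88. Protein comparison was planned but not done; transcripts were compared instead, a choice made after seeing the files. One gene of the interferon signalling list is not reported here and was left out of its counts. Members and lists were chosen with earlier results of these data known. Named genes are the members, fixed pathway lists, genes within 250 kb and the 8 nearest profiles to Ifit1 and Ifit3. Alternatives were other scalings (among them DESeq2 1.42.0 size factors), count filters, fold thresholds, log2(CPM + 1), summing Ifit3 with Ifit3b, and 1 motif mismatch.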

Additional observations from a re-analysis of the deposited data

Results flagged for a closer look

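Among the named pathway and neighbouring genes, 6 were called in opposite directions in the treated DC and treated T cell libraries, each against its PBS library. With 1 library per group the difference between the cell types was not tested. These are 9.52% of the 63 named genes tested in both cell types, while 14.1% of all 9388 genes tested in both were called in opposite directions, so the count does not stand above that background. Tlr7, which senses single-stranded RNA in endosomes, had a log2 ratio of 2.56 in DCs and of -3.27 in T cells, and Tlr3, the receptor for double-stranded RNA, had 1.43 and -4.77. Ticam1, the adaptor of Tlr3, had -5.48 in DCs and 1.61 in T cells. The 2-5A synthetase Oas1a had -1.84 and 4.20, and Oas1g, with 24 counts in treated T cells against 0 in PBS T cells, had -3.03 and 2.99. Pank1, a neighbour of the Ifit cluster, had -4.82 and 3.31. Of these, Ticam1 and Pank1 had 0 counts in treated DCs, Tlr3 had 0 in treated T cells and Oas1g 0 in PBS T cells, so those log2 values stand at the floor of 3 counts. None of the Ifit members was called in opposite directions.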

How the results depend on the processing

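All 4 tested members in DCs and all 5 in T cells stayed higher under other scalings, the deposited FPKM, centring, log2(CPM + 1), no count filter and the 1.5-fold threshold. Ifit3b in DCs, with 29 and 0 counts, was not tested with a minimum of 100 counts or with 20 counts in both libraries. With a 4-fold threshold 3 members were called in T cells, since Ifit1bl1 and Ifit3b lie at log2 ratios of 1.26 and 1.48. That threshold called 1922 of 10316 tested genes, or 18.6%, higher in DCs. In T cells it called 1003 of 11058, or 9.07%, higher and 1774, or 16.0%, lower. Requiring 20 counts in both libraries left fewer genes tested, of which 1825 of 6976, or 26.2%, were lower in DCs. In T cells 1378 of 8953, or 15.4%, were lower. TMM over all 4 libraries moved the log2 ratios of DCs over T cells with treatment to 0.24 for Ifit1, -6.30 for Ifit1bl1, 0.58 for Ifit2, -0.078 for Ifit3 and -4.50 for Ifit3b. With PBS it moved them to 0.12 for Ifit1, -5.84 for Ifit1bl1, 0.75 for Ifit2, 0.95 for Ifit3 and -7.09 for Ifit3b. The cause was not tested. By counts in place of FPKM, Ifit3 made 57.9% of the family in treated DCs, 72.9% in PBS DCs, 50.5% in treated T cells and 31.1% in PBS T cells. Allowing 1 mismatch, 35.4% of all promoter windows matched, and all 5 members did. No paired analysis was possible because each group has 1 library. At these depths a count of 0 limits Ifit1bl1 to 0.213 CPM in treated DCs and 0.126 CPM in PBS DCs.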
